A study of Mus musculus with 4 samples.

Results

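The vascular endothelial growth factor (VEGF) ligands and receptors were examined in calvarial bone: the 4 ligand genes *Vegfa*, *Vegfb*, *Vegfc* and *Pgf*, the 3 receptor genes *Flt1*, *Kdr* and *Flt4*, and the 2 neuropilin co-receptor genes *Nrp1* and *Nrp2*. They were taken as a list of gene symbols, chosen with earlier results of these data known, and all 9 were present among the 23946 genes measured. Their transcripts were measured by bulk RNA-seq as FPKM, that is, a fragment count divided by transcript length and scaled for the size of the library, in frontal and parietal bone of wild-type and *Twist1*+/- mice. Neural crest gives rise to the frontal bone and mesoderm to the parietal bone, and the comparisons address how each bone differs by genotype and how the bones differ from each other. All mice were 21 days old after birth and of C57BL/6J background, with 12 mice named for each strain, and the *Twist1*+/- mice were constitutive heterozygotes, so every cell of the tissue carried the allele. The bones were described as comprising pericranium, bone plate and dura mater. There was 1 library for each of the 4 combinations of genotype and bone; the sources used here do not state whether it was made from pooled mice. No difference below therefore has a replicate check, no p-value or SD can be given, and FPKM do not carry the depth of a single library, for which the methods give only an average.

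VEGF ligands are secreted proteins that act through receptor tyrosine kinases on endothelial cells. *Vegfa* encodes the main driver of blood vessel growth and signals chiefly through the receptor encoded by *Kdr*, while the products of *Vegfb* and *Pgf* bind the receptor encoded by *Flt1*, which also exists in a soluble form that traps ligand. *Vegfc* encodes a ligand of the receptor encoded by *Flt4*, best known for lymphatic vessels, and the neuropilins bind both VEGF ligands and class 3 semaphorins. In bone, *Vegfa* is made by osteoblast lineage cells and hypertrophic cartilage among others, and vessel growth is closely tied to bone formation.

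The targeted gene did not separate the parietal libraries. In frontal bone *Twist1* was at 59.0 FPKM in wild-type and 30.4 FPKM in *Twist1*+/- mice. In parietal bone it was at 52.5 FPKM in wild-type mice, and the library labelled *Twist1*+/- parietal held 50.7 FPKM, so what is said of this library depends on its label being right. Genes at or above 1 FPKM numbered between 13094 and 14058 per library. A comparison of genes at very low values put the worth of 1 read at 1.30 times as many FPKM in *Twist1*+/- frontal as in wild-type frontal bone, at 1.30 times as many in wild-type parietal as in *Twist1*+/- frontal bone, and at 0.986 times as many in the library labelled *Twist1*+/- parietal as in wild-type parietal bone. Each value is the ratio at which more of these genes gathered than at any other, with between 10.1% and 11.0% of them. It would make wild-type frontal bone the most deeply sequenced only if FPKM were scaled alike in all libraries, which the sources used here do not state. Genes of other tissues set the libraries apart. The summed FPKM of 12 skeletal muscle markers was 134 in the frontal and 4317 in the parietal library of wild-type mice, and 1614 in the frontal and 2111 in the labelled parietal library of *Twist1*+/- mice. In the same order of libraries, 12 meningeal and neural markers summed to 2530, 1252, 889 and 1128 FPKM. *Igf2* alone held 1127 of the 1252 FPKM in wild-type parietal bone. Of the 12 markers, 10 were more than 3-fold lower there than in wild-type frontal bone, and 2 were higher. Over all genes 9.2% were that much lower. In the same order, 10 nasal epithelium markers summed to 325, 23.2, 1517 and 1693 FPKM, 9 erythroid markers to 1587, 615, 781 and 765 FPKM, and 10 osteoclast markers to 2641, 9221, 3290 and 6757 FPKM. For 10 macrophage and monocyte markers the sums were 1322, 1251, 1336 and 1159 FPKM. Of all these markers only *Scgb1a1* was listed at 0, in all 4 libraries. The part that this makeup plays in the VEGF genes was not tested. Bone identity was plain, with 10 osteoblast and osteocyte markers summing to between 10926 and 19103 FPKM, although the collagen genes *Col1a1* and *Col1a2* were listed at 0 in every library except wild-type parietal bone. No VEGF gene was listed at 0 in any library.

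Among the 9 genes *Nrp2* was the highest and *Flt4* the lowest in each of the 4 libraries. FPKM is scaled to transcript length, so levels of different genes are set side by side here. The trends with transcript length and GC content described below remain in them. The mean level over the 4 libraries was 49.9 FPKM for *Nrp2* and 20.8 FPKM for *Nrp1*, followed by 18.6 FPKM for *Vegfb* and 16.2 FPKM for *Vegfa*. *Kdr* (7.71 FPKM), *Pgf* (6.40 FPKM) and *Flt1* (5.46 FPKM) came next, above *Vegfc* (3.72 FPKM) and *Flt4* (3.11 FPKM). Neighbours in this order changed places between libraries: *Vegfa* was above *Vegfb* in both wild-type bones and below it in both *Twist1*+/- libraries. With 1 library per condition, none of these neighbouring ranks can be set against replicate error. The neuropilins together outweighed the receptors and the ligands in every library. Their summed level was between 57.8 and 76.2 FPKM, against 36.2 to 53.2 FPKM for the 4 ligands and 8.44 to 20.9 FPKM for the 3 receptors.

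**Figure D1:**
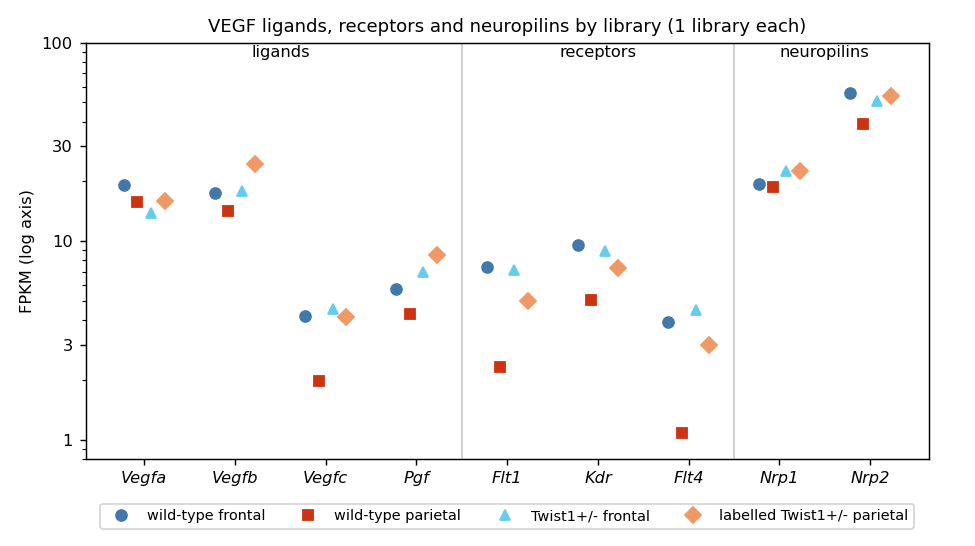
Level of each VEGF gene in each library. The horizontal axis lists the 9 genes by role and the vertical axis gives FPKM on a log scale; each point is 1 library, and there are no error bars because each condition has 1 library. Wild-type parietal bone (squares) is the lowest point for 8 of the 9 genes, and its gap to the other libraries is widest for *Flt1* at 2.32 FPKM and *Flt4* at 1.08 FPKM.

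Wild-type parietal bone had the lowest value of the 4 libraries for 8 of the 9 genes, the exception being *Vegfa*. Over all genes reaching 1 FPKM in at least 1 library, this library was the lowest for 34.8%. Without adjustment for the trends with transcript length and GC content described below, the pattern was clearest in the receptors. Their summed level was 20.9 FPKM in the frontal and 8.44 FPKM in the parietal library of wild-type mice. In *Twist1*+/- mice it was 20.5 FPKM in the frontal and 15.3 FPKM in the labelled parietal library. The frontal libraries of both genotypes were thus near each other, and the library labelled *Twist1*+/- parietal fell between them and wild-type parietal bone. In bulk bone, fewer cells of a type and less RNA per cell cannot be told apart.

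*Vegfa* lies on chromosome 17 of mm9 (chr17:46153942-46169326, reverse strand) and has 9 annotated coding transcripts, which the gene-level FPKM adds together. Its level was 19.2 FPKM in the frontal and 15.7 FPKM in the parietal library of wild-type mice, and 13.8 FPKM in the frontal and 15.9 FPKM in the labelled parietal library of *Twist1*+/- mice. The parietal libraries were nearly equal, and the span from lowest to highest was 1.39-fold, narrower than for any other VEGF gene except *Nrp1*. *Vegfb*, on chromosome 19 (chr19:7056963-7062141, reverse strand), was measured at 17.6, 14.2, 17.9 and 24.6 FPKM in the same order of libraries. Its frontal values were alike, and it was highest in the library labelled *Twist1*+/- parietal. *Pgf*, which encodes placental growth factor (chr12:86507589-86518246, reverse strand), was at 5.76, 4.27, 7.02 and 8.53 FPKM, again lowest in wild-type parietal bone and highest in the library labelled *Twist1*+/- parietal. *Vegfc* (chr8:55162886-55271808, forward strand) was at 4.19, 1.98, 4.53 and 4.17 FPKM. Here 3 libraries lay close together and wild-type parietal bone alone stood lower. The remaining ligand of the family, *Figf* (also called *Vegfd*), which shares receptors with *Vegfc*, was near 1 FPKM throughout, at 0.865, 1.05, 0.772 and 1.01 FPKM.

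*Flt1* and *Kdr* both lie on chromosome 5 of mm9, *Flt1* at chr5:148373180-148537587 and *Kdr* at chr5:76328852-76374483, both on the reverse strand, and *Flt4* lies at chr11:49422765-49466241 on the forward strand. *Flt1*, the receptor that is often described as a decoy for *Vegfa*, was at 7.40 FPKM in the frontal and 2.32 FPKM in the parietal library of wild-type mice, and 7.12 FPKM in the frontal and 5.02 FPKM in the labelled parietal library of *Twist1*+/- mice. The annotation lists 3 coding transcripts of *Flt1*, with coding lengths of 4002, 2067 and 1695 bases, and the gene-level value does not separate full-length from shortened forms. *Kdr*, the main signalling receptor for *Vegfa*, was at 9.61, 5.04, 8.91 and 7.28 FPKM in the same order. *Flt4* was at 3.90, 1.08, 4.49 and 2.98 FPKM. All 3 receptors had both frontal libraries on top, the library labelled *Twist1*+/- parietal next and wild-type parietal bone at the bottom. The span from lowest to highest was 1.91-fold for *Kdr*, 3.20-fold for *Flt1* and 4.14-fold for *Flt4*, so the ratio between receptors also differed by library. *Flt1* was 0.770 of *Kdr* in wild-type frontal bone and 0.460 of it in wild-type parietal bone, with 0.799 and 0.689 in the *Twist1*+/- frontal and labelled *Twist1*+/- parietal libraries.

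The neuropilins varied least beside *Vegfa*. *Nrp1* (chr8:130882973-131029362, forward strand) was at 19.5 FPKM in the frontal and 18.6 FPKM in the parietal library of wild-type mice, and 22.4 FPKM in the frontal and 22.6 FPKM in the labelled parietal library of *Twist1*+/- mice. It was slightly higher in both *Twist1*+/- libraries than in both wild-type libraries, within a 1.21-fold span. *Nrp2* (chr1:62749859-62865269, forward strand), the partner of *Flt4* in lymphatic vessels, was at 56.0, 39.1, 50.9 and 53.6 FPKM, with wild-type parietal bone again the lowest. The summed ligand level was 2.23 times the summed receptor level in wild-type frontal bone, 4.28 times in wild-type parietal bone, 2.11 times in *Twist1*+/- frontal bone and 3.48 times in the library labelled *Twist1*+/- parietal. These sums were not adjusted for the trends with transcript length and GC content described below. No stretch of 75 bases, the read length, in a transcript of these 9 genes was shared with a transcript of another gene, and *Mir1903*, on the same strand as *Nrp1*, was the only annotated gene overlapping any of them.

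The bases just upstream of the *Flt1*, *Kdr* and *Vegfa* starts are shown because *Flt1* and *Kdr*, receptors on the same chromosome, differed in how low they were in wild-type parietal bone while *Vegfa* was nearly level there. Each run is the 250 bases before the RefSeq start (table of build GRCm38.p6), 5′ to 3′ on the strand of the gene, and each matched its chromosome in mm9 exactly once, at chr5:148537588-148537837 (*Flt1*), chr5:76374481-76374730 (*Kdr*) and chr17:46169327-46169576 (*Vegfa*). Capitals mark CANNTG, the E-box letters bound by basic helix-loop-helix factors, the class to which Twist1 belongs, and ACGTG or GCGTG, the core letters of hypoxia response elements, on either strand.
Flt1: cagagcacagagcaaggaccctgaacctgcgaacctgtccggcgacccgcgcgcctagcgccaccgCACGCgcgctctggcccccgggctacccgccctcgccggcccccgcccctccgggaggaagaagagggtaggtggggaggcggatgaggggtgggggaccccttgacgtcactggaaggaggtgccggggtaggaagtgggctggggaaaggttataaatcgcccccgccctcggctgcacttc
Kdr: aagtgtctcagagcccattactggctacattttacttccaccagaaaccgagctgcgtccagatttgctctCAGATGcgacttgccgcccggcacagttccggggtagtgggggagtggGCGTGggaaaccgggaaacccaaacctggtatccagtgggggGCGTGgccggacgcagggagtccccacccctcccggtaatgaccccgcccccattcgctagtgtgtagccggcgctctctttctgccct
Vegfa: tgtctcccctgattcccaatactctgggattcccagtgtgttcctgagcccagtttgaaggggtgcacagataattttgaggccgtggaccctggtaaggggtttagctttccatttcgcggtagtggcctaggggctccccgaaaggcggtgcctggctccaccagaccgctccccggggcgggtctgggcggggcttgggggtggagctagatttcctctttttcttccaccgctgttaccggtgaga
The *Flt1* run held 1 hypoxia core, read on the opposite strand at position -184 from the start, a TATA box (TATAAA) at -31 and no E-box. The *Kdr* run held 1 E-box at -179 and hypoxia cores of the GCGTG form at -131 and -89. The *Vegfa* run, before the more upstream of its 2 listed starts, held neither an E-box nor a hypoxia core. Among 32851 RefSeq promoters of the same 250 bases, the E-box letters were found in 66.2%, the GCGTG form of the hypoxia core in 28.2%, its other form in 16.6% and the TATA box in 12.4%, both strands counted and overlaps allowed. A match is a description of the letters, not a bound site.

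In parietal bone all 9 VEGF genes were higher in the library labelled *Twist1*+/- parietal than in wild-type parietal bone, where 46.9% of all genes were higher. The log2 ratio was 1.46 for *Flt4*, 1.11 for *Flt1*, 1.07 for *Vegfc* and 0.997 for *Pgf*. It was 0.79 for *Vegfb*, 0.53 for *Kdr*, 0.46 for *Nrp2*, 0.28 for *Nrp1* and 0.02 for *Vegfa*. For *Vegfb*, whose transcript has a GC content of 62.6%, it was 0.09 after the median ratio of genes of like GC content was subtracted. None was past the 3-fold threshold used here, which also asks for 1 FPKM in the higher library and which 8.19% of 13914 genes passed in either direction. *Flt4*, *Flt1* and *Vegfc* were more than 2-fold higher, as were 10.8% of genes. The median log2 ratio was 0.79 for the 9 genes, 1.11 for the receptors, 0.90 for the ligands and 0.37 for the neuropilins, against -0.06 for all genes. Across 12554 genes the ratio followed the GC content of the transcript (Spearman's rho 0.55, a description across genes that share the same 2 libraries). After the median ratio of genes of like GC content and transcript length was subtracted, an adjustment chosen after these trends were seen, all 9 ratios stayed above 0, from 0.16 for *Vegfa* to 1.37 for *Vegfc*, with 1.02 for *Flt1*, 0.99 for *Flt4* and 0.39 for *Vegfb*.

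In frontal bone the genotypes were close. The log2 ratio of *Twist1*+/- to wild-type frontal bone was -0.47 for *Vegfa*, the widest of the 9, and between -0.14 (*Nrp2*) and 0.28 (*Pgf*) for the others. *Vegfa* thus stood at 13.8 FPKM against 19.2 FPKM, or 1.39-fold lower. The receptors were near equal, with -0.06 for *Flt1*, -0.11 for *Kdr* and 0.20 for *Flt4*. With 5 genes higher and 4 lower, the median was 0.02, beside -0.04 for all genes, and none was past 3-fold, which 3.89% of 14341 genes passed in either direction.

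Between the wild-type bones all 9 VEGF genes were lower in parietal than in frontal bone, where 50.5% of all genes were lower. *Flt4* was 3.61-fold lower (log2 ratio -1.85) and *Flt1* 3.20-fold lower (-1.68), and these 2 passed the 3-fold threshold, as did 9.2% of 14214 genes in that direction. *Vegfc* (-1.08) was also more than 2-fold lower, as were 15.6% of genes. *Kdr* (-0.93), *Nrp2* (-0.52), *Pgf* (-0.43), *Vegfb* (-0.31), *Vegfa* (-0.29) and *Nrp1* (-0.06) differed by less. The median was -0.52 for the 9 genes and -1.68 for the receptors, against -0.01 for all genes. This comparison and the one between parietal libraries share the wild-type parietal library, so the low values there enter both. Threshold calls rested on choices at low values: with 1 FPKM added to each value the log2 ratios of *Flt4* and *Flt1* were -1.24 and -1.34, short of the 3-fold threshold, which lies at 1.58.

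**Figure D2:**
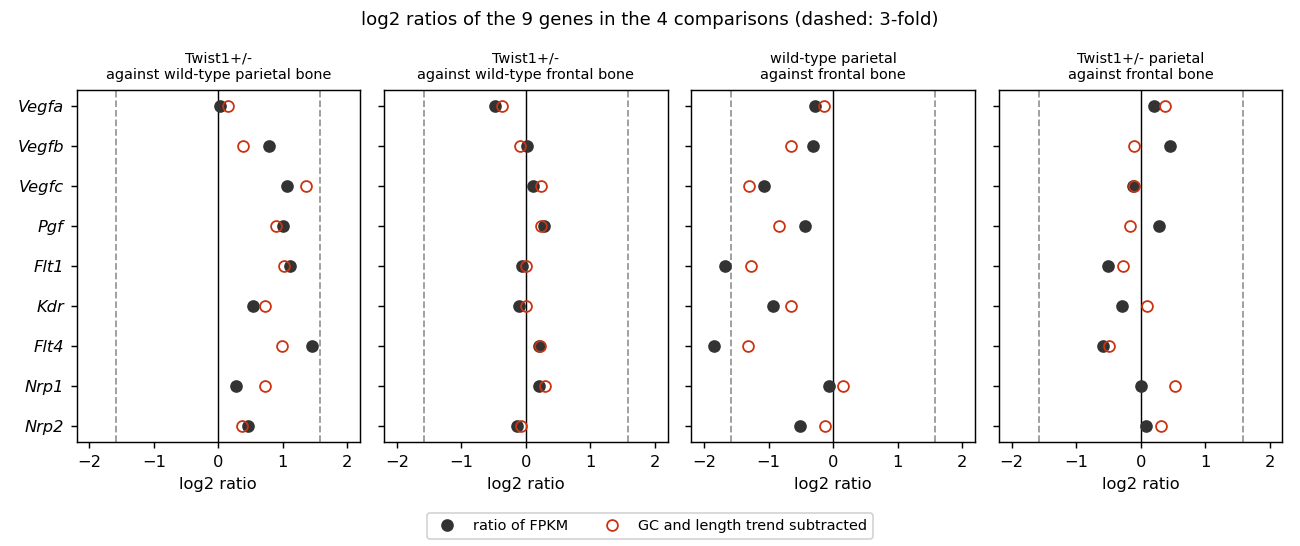
Log2 ratios of the 9 genes in the 4 comparisons. Each panel is 1 comparison, the horizontal axis is the log2 ratio of FPKM (first-named over second-named library), filled points are the ratios as measured and open points those after subtraction of the median of genes of like GC content and length; dashed lines mark 3-fold. All filled points lie above 0 between the parietal libraries and below 0 between the wild-type bones, where *Flt1* (-1.68) and *Flt4* (-1.85) pass the line and their open points (-1.28 and -1.32) do not.

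Transcript length moved with the difference between the wild-type bones. Across 12852 genes the ratio fell with length (Spearman's rho -0.30, again across genes of the same 2 libraries), from a median of 0.74 in the tenth of genes with the shortest transcripts to -0.33 in the tenth with the longest. The receptor transcripts are long, at 6895 bases for *Flt1*, 5924 bases for *Kdr* and 6255 bases for *Flt4*, and genes of like length and GC content had a median ratio of -0.39, -0.27 and -0.53. With these subtracted the ratio was -1.28 for *Flt1*, -0.66 for *Kdr* and -1.32 for *Flt4*, so all 3 stayed lower in parietal bone but none was past 3-fold. The ligands *Vegfb* and *Pgf*, with short transcripts of 1281 and 1582 bases, moved the other way, to -0.65 and -0.84, and *Nrp1* changed to 0.15, leaving 8 of the 9 genes below 0. The ligand *Vegfc*, with a transcript of 1881 bases, was then at -1.30, beside -1.28 for *Flt1* and -1.32 for *Flt4*. The receptors thus did not stand apart from every ligand after the subtraction. Whether this trend arises in the tissue or in the libraries was not tested.

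**Figure D3:**
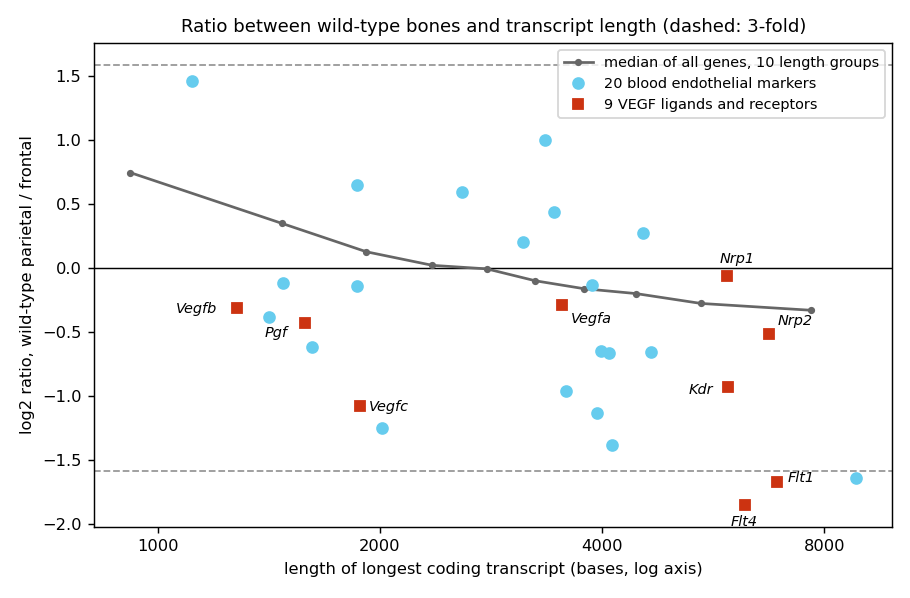
Log2 ratio between the wild-type bones, parietal over frontal (vertical axis), against transcript length in bases (horizontal axis, log scale). The line joins the medians of all genes in 10 groups by length, circles are 20 blood endothelial markers and squares the 9 VEGF genes. The line goes from 0.74 to -0.33, and every VEGF gene except *Nrp1* lies below it.

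Between the bones of *Twist1*+/- mice the 9 genes lay near 0, with a median of 0.01 beside -0.03 for all genes. The 3 receptors were lower in the library labelled *Twist1*+/- parietal than in *Twist1*+/- frontal bone, with log2 ratios of -0.59 for *Flt4*, -0.51 for *Flt1* and -0.29 for *Kdr*. Of the ligands *Vegfb* (0.46), *Pgf* (0.28) and *Vegfa* (0.20) were higher and *Vegfc* (-0.12) lower, and the neuropilins were at 0.01 and 0.08. None was past 3-fold, which 4.09% of 14305 genes passed in either direction. Across 12979 genes the ratio fell with transcript length (Spearman's rho -0.43) and rose with GC content (0.42). After subtraction for GC content and length *Kdr* stood at 0.09, *Flt1* at -0.27 and *Flt4* at -0.49. *Vegfb* and *Pgf* changed sign, to -0.11 and -0.17, so that 1 ligand, *Vegfa* at 0.38, was higher and 3 were lower.

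Blood endothelial cells, which express *Kdr* and *Flt1*, were followed by 20 markers. Their summed level was 385 FPKM in the frontal and 353 FPKM in the parietal library of wild-type mice, and 439 FPKM in the frontal and 575 FPKM in the labelled parietal library of *Twist1*+/- mice. The markers did not move as 1 block. Between the wild-type bones 13 of 20 were lower in parietal bone, beside 50.5% of all genes. The median of the 20 was -0.26, against -1.68 for the VEGF receptors, and -0.27 against -1.28 with the GC and length trend subtracted. *Vwf*, the von Willebrand factor gene, has a transcript of 8834 bases and was the only one past 3-fold (-1.64). Over all genes 9.2% were that much lower. Between the parietal libraries 15 of 20 were higher in the one labelled *Twist1*+/- parietal, beside 46.9% of all genes, with a median of 0.79. In that direction 2 of 20 passed 3-fold, beside 5.25% of all genes. These were *Plvap*, a gene of fenestrated endothelium and the highest marker of the list by its mean, at 22.5 against 104 FPKM (log2 ratio 2.21), and *Sox18*, an endothelial transcription factor gene, at 15.5 against 64.5 FPKM (2.05). Both have a GC content of 60.5% and 60.9%, in the range where the median ratio of all genes was 0.64. In frontal bone the median of the 20 markers was 0.11 between genotypes and none passed 3-fold, beside 3.89% of all genes in either direction.

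Lymphatic endothelium, which expresses *Flt4*, was followed by 8 markers, which were at unequal levels. The transcription factor gene *Prox1*, its defining marker, was between 0.11 and 0.17 FPKM. *Lyve1* was between 1.56 and 4.75 FPKM and *Foxc2* between 5.59 and 10.5 FPKM, but neither is confined to lymphatic vessels. The chemokine gene *Ccl21a* was listed at 0 in every library, which, as for the collagen genes, cannot be read as absence. The summed level of the 8 markers was 45.3, 69.6, 38.6 and 43.5 FPKM in the frontal and parietal libraries of wild-type mice and the frontal and labelled parietal libraries of *Twist1*+/- mice, with the largest share from *Pdpn*, which osteocytes also express. Between the wild-type bones 3 markers, *Pdpn* (log2 ratio 1.49), *Lyve1* (0.93) and *Prox1* (0.66), were higher in parietal bone and 4 were lower, with a median of -0.21. Of the 4, *Reln* (-3.26) and *Mmrn1* (-1.70) were more than 3-fold lower, beside the 9.2% of all genes that were. The *Reln* transcript is long, at 11702 bases, and the tenth of genes with the longest transcripts had a median of -0.33. With the GC and length trend subtracted the median of the lymphatic markers was 0.17. Whether *Reln* and *Mmrn1* came from lymphatic vessels was not tested. Among 12 mural cell markers, which mark pericytes and smooth muscle, 5 were more than 3-fold higher in wild-type parietal than in wild-type frontal bone, in the opposite direction to the VEGF receptors and beside 4.07% of all genes. Those 5 included *Des* (3.38), *Higd1b* (2.38), *Rgs5* (1.92) and *Acta2* (1.83). Of all 12, 8 were higher and 4 lower, with a median of 0.69, or 0.80 with the GC and length trend subtracted. The *Higd1b* transcript is short, at 735 bases, and the tenth of genes with the shortest transcripts had a median of 0.74. *Des* is also a skeletal muscle gene, and the skeletal muscle markers were highest in the same library. The part of muscle in the mural marker values was not tested. *Rgs5*, the highest mural marker by its mean, was at 122 FPKM in the parietal library of wild-type mice and at 25.6 FPKM in the one labelled *Twist1*+/- parietal. Between the parietal libraries 6 of the 12 mural markers were higher and 6 lower, with a median of -0.11.

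Upstream of the ligands, *Vegfa* is a textbook target of hypoxia-inducible factors, and 12 other known targets were examined. In wild-type parietal against frontal bone 3 of 12 were more than 3-fold higher, with none more than 3-fold lower and a median of 0.71, beside 4.07% of all genes higher and 9.2% lower by that much. They were *Ankrd37* (log2 ratio 2.09), *Car9* (1.91) and *Bnip3* (1.65), which encode an ankyrin repeat protein, a carbonic anhydrase and a mitophagy protein. The *Ankrd37* transcript is short, at 927 bases, and the tenth of genes with the shortest transcripts had a median of 0.74. With the GC and length trend subtracted the median of the 12 targets was 0.59. The glucose transporter gene *Slc2a1* went the other way (-1.58), just short of 3-fold. *Vegfa* did not share the direction of the 3 either, at 15.7 against 19.2 FPKM. The highest of the list, the lactate dehydrogenase gene *Ldha*, was at 199 FPKM in the frontal and 448 FPKM in the parietal library of wild-type mice, and 220 FPKM in the frontal and 308 FPKM in the labelled parietal library of *Twist1*+/- mice. Between the parietal libraries the 12 targets had a median of -0.75 with none past 3-fold, beside 8.19% of all genes in either direction. Several of the 12 targets act in glycolysis, which muscle fibres also use. The skeletal muscle markers summed to 134 and 4317 FPKM in wild-type frontal and parietal bone, and the part of muscle in the values of the 12 was not tested. Of 9 oxygen-sensing genes, none was past 3-fold in any comparison. Over all genes 8.19% were past it between the parietal libraries, 3.89% between the frontal libraries and 4.09% between the *Twist1*+/- bones. Between the wild-type bones 9.2% of all genes were lower and 4.07% higher by that much. *Epas1*, the highest of the 9 by its mean over the 4 libraries, which encodes the endothelial-enriched HIF-2α, was at 30.8, 13.6, 44.5 and 40.3 FPKM, with wild-type parietal bone the lowest, as for the receptors.

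**Figure D4:**
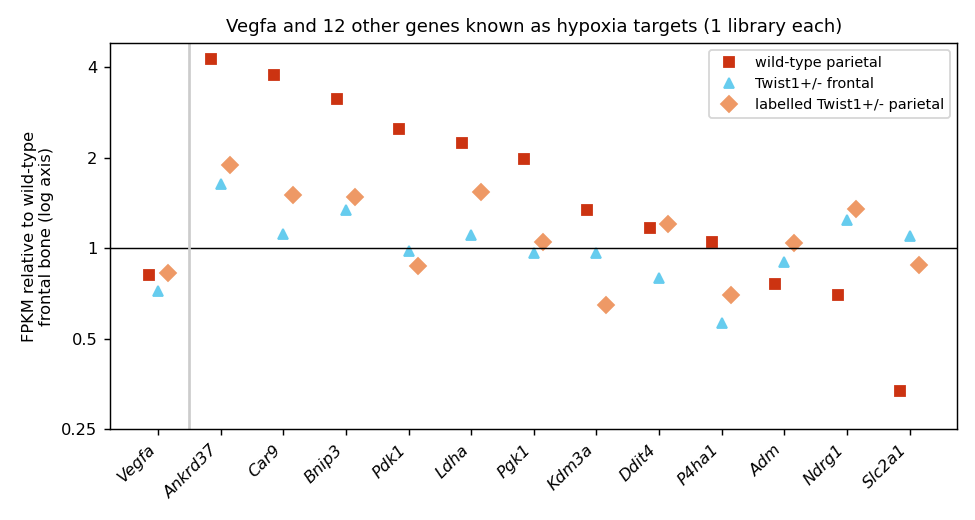
*Vegfa* and 12 other known hypoxia target genes, each as FPKM relative to wild-type frontal bone (vertical axis, log scale; the line at 1 is wild-type frontal bone). Each point is 1 of the other 3 libraries. *Ankrd37*, *Car9* and *Bnip3* are highest in wild-type parietal bone, with log2 ratios of 2.09, 1.91 and 1.65 against frontal bone, while *Vegfa* lies at -0.29.

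Downstream of the receptors, 20 genes of VEGF signal transduction were listed, of which 19 reached 1 FPKM. None of these passed 3-fold in any comparison, beside the shares of all genes given for the oxygen-sensing genes. The highest, *Akt1*, which encodes a kinase of cell survival signalling, was at 61.3, 73.9, 71.3 and 89.2 FPKM. Of 14 genes that VEGF is known to induce in endothelium, 1 was more than 3-fold higher in wild-type parietal than frontal bone, the potassium channel subunit gene *Kcne3* (log2 ratio 2.29), and none was more than 3-fold lower, beside the same 4.07% and 9.2% of all genes. Of the 14, 9 were higher and 5 lower in that comparison, beside 50.5% of all genes lower. *Esm1* had the lowest ratio (-1.07), at 10.8 FPKM in frontal and 5.12 FPKM in parietal bone. The median of the 14 was 0.57, opposite in sign to the receptors, and 0.64 with the GC and length trend subtracted. The *Kcne3* transcript has 1314 bases, and the tenth of genes with a median length of 1473 bases had a median ratio of 0.35. The highest of them by its mean, *Rcan1*, which encodes a calcineurin inhibitor, was at 23.4, 62.9, 22.8 and 38.3 FPKM. The median of the 14 was 0.15 between the parietal and 0.03 between the frontal libraries. The 5 angiopoietin and Tie genes, a parallel vessel-stabilising pathway, had no member past 3-fold, beside the shares given for the oxygen-sensing genes. *Angpt2*, the highest of the 5 by its mean over the 4 libraries, was at 12.7, 18.9, 11.3 and 14.9 FPKM.

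The neuropilins also serve semaphorin signalling, for which 13 class 3 semaphorin and plexin pathway genes were listed. Between the parietal libraries *Sema3g*, which encodes an endothelial semaphorin, was higher in the one labelled *Twist1*+/- parietal (0.826 against 2.57 FPKM, log2 ratio 1.64), and *Sema3a*, which encodes the classical ligand of neuropilin-1, was lower (6.09 against 1.80 FPKM, -1.76). Between the wild-type bones *Sema3e* was lower in parietal bone (1.10 FPKM in frontal and 0.207 FPKM in parietal, -2.40), beside 9.2% of all genes more than 3-fold lower. Its transcript is long, at 6820 bases. *Nrp1* and *Nrp2* differed by less than 1.5-fold in each of these comparisons. The highest gene of the list by its mean, *Gipc1*, whose product binds the tail of neuropilin-1, was at 24.1, 36.2, 26.7 and 30.6 FPKM.

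Likeness to *Kdr* and *Vegfa* over the 4 libraries was measured as the root mean square difference of log2 FPKM, each gene centred on its mean, over 4 points. The search covered the 7873 genes above 0 in every library and at or above 10 FPKM in at least 1, so genes that, like *Kdr* at 9.61 FPKM, stay under that floor were left out. The nearest to *Kdr* were *Numa1* (0.032), *Desi1* (0.033) and *Mia3* (0.037). In all, 74 of these genes lay within 0.1 of *Kdr*, and among the VEGF genes *Nrp2* was nearest, at 0.197. For *Vegfa* the nearest were *Hars* (0.023), *Stk16* (0.035) and *Urod* (0.037), with 92 genes within 0.1. With 4 points, likeness of this kind carries no test.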

How the data were processed

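Single-end reads of 75 bases were aligned by the authors to mm9 with STAR 2.4.2a, and the deposited values are FPKM per gene from Cuffdiff (Cufflinks 2.2.1), 1 column for each of 4 libraries. The sources used here do not give the scaling option. FPKM are not counts, so the depth of each library, of which the methods give only an average, and its precision are unknown. Libraries were grouped by their labels. The VEGF genes and the marker lists were chosen with earlier results of these data known.

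Log2 ratios were formed for 4 comparisons with Python 3.11.15, pandas 2.3.3, numpy 2.4.6 and scipy 1.17.1, and plots were drawn with matplotlib 3.10.9. A gene was counted past 3-fold when the higher library had at least 1 FPKM. With 1 library per condition no test was possible. Transcript length and GC content were taken from the longest coding transcript in GENCODE M1 (mm9), found for 80.8% of genes. The trend was subtracted in 20 GC groups or, as an addition made after seeing the data, in 25 groups of length and GC. Other settings were a pseudocount of 0.1 or 1 FPKM, scaling to the median ratio or to *Gapdh*, a 2-fold threshold and a floor of 0 or 10 FPKM. The calculation was tested on simulated data. Named genes are the 9 VEGF genes, the genes of each list past 3-fold (at most 4), the highest of each list, the 3 nearest to *Kdr* and *Vegfa*, and *Twist1* and *Gapdh*. *Col1a1*, *Col1a2*, *Scgb1a1*, *Igf2*, *Prox1*, *Lyve1*, *Foxc2*, *Ccl21a*, *Figf*, *Slc2a1*, *Esm1* and *Mir1903* were named in addition, after their values were seen.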

Additional observations from a re-analysis of the deposited data

Results flagged for a closer look

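Some VEGF genes had opposite directions in the comparison of genotypes in the 2 bones, or of bones in the 2 genotypes. With 1 library per condition none of these differences was tested, and the difference of the log2 ratios has no error. The genotype ratio was above 0 in parietal and below 0 in frontal bone for *Vegfa*, *Flt1*, *Kdr* and *Nrp2*, with a difference (parietal minus frontal) of 0.49 for *Vegfa*, 1.17 for *Flt1*, 0.64 for *Kdr* and 0.59 for *Nrp2*. The ratio of parietal to frontal bone was above 0 in *Twist1*+/- and below 0 in wild-type mice for 5 genes, with a difference of 0.49 for *Vegfa*, 0.77 for *Vegfb*, 0.71 for *Pgf*, 0.072 for *Nrp1* and 0.59 for *Nrp2*. Both differences are the same number for a given gene, since they combine the same 4 values. The difference for *Nrp1* joins log2 ratios of 0.01 and -0.06 and is too small to read, and for *Flt1* and *Kdr* the frontal ratios (-0.06 and -0.11) are also close to 0. With the GC and length trend subtracted the opposite directions ended for *Flt1*, whose frontal ratio became 0.0032, and between bones for 3 of the 5 genes: in wild-type and *Twist1*+/- mice the ratios were then -0.65 and -0.11 for *Vegfb*, -0.84 and -0.17 for *Pgf*, and 0.15 and 0.54 for *Nrp1*. The frontal ratio of *Kdr* became -0.00035, too small to give a direction. The same subtraction brought opposite directions for *Vegfb* between genotypes, at 0.39 in parietal and -0.09 in frontal bone. It also did so for *Kdr* between bones, at -0.66 in wild-type and 0.09 in *Twist1*+/- mice. The largest unadjusted difference of the 9, 1.26 for *Flt4*, was not among the flagged results because its frontal ratio was above 0.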

How the results depend on the processing

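The direction of the median of the 9 genes was the same under every alternative between the parietal libraries and between the wild-type bones. Between the frontal libraries the median was 0.02 and became -0.078 with scaling to *Gapdh* and -0.0022 with the GC trend subtracted. Between the *Twist1*+/- bones it was 0.01 and became -0.10 with the GC and length trend subtracted. Of the genes past 3-fold between the parietal libraries there were 0, then 1 (*Flt4*) with scaling to *Gapdh* and 3 (*Vegfc*, *Flt1*, *Flt4*) at a 2-fold threshold. Between the wild-type bones there were 2, then 0 with a pseudocount of 1 FPKM, 0 with the GC and length trend subtracted and 0 with a floor of 10 FPKM, which neither *Flt1* nor *Flt4* reaches. Scaling to *Gapdh*, which was at 158, 215, 170 and 164 FPKM in wild-type frontal, wild-type parietal, *Twist1*+/- frontal and labelled *Twist1*+/- parietal bone, moved every log2 ratio by 0.39 between the parietal, -0.10 between the frontal and -0.44 between the wild-type bones. Of 36 single ratios, 28 kept their direction and side of the threshold and moved by no more than 1.5-fold with the GC and length trend subtracted, 33 with the GC trend alone, 34 with a pseudocount of 1 FPKM, 34 with scaling to *Gapdh* and 36 with the other scaling or pseudocount. The causes were not tested beyond these alternatives. No paired analysis was possible because each group has 1 library, and for the same reason no library could be left out. The depth of each library is unknown, so the precision of low values such as *Flt4* at 1.08 FPKM cannot be given.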
